A study of Mus musculus with 12 samples.

Results

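Untreated peritoneal macrophages raised in mice by 2 different injections, IL-4 complex (IL4c) and thioglycollate (TG), were compared across all expressed genes. The libraries were chosen by their labels, which give the injection and a culture with no addition, and they are 6 of the 12 libraries of the series, 3 per injection. The other 6 libraries come from the same 2 injections but were cultured with the matricellular protein SPARC at 20 ug/ml. They entered the fit, where they help to set the spread behind every p-value, and their own values are given last. Macrophages of the peritoneal cavity fall into long-lived large resident cells, whose identity depends on the transcription factor GATA6, and smaller cells that arise from blood monocytes. Thioglycollate broth is a sterile irritant that draws monocytes into the cavity. IL-4 acts through its receptor and STAT6, can make resident macrophages divide in place, and induces the alternative activation genes, which encode chitinase-like proteins, RELM alpha, arginase and lectins.

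All mice were C57BL/6. In the TG group, mice were given 3% thioglycollate in 1 injection 4 days before the cells were collected. In the IL4c group, mice were given 2 injections, each of 5 ug IL-4 mixed with 25 ug of anti-IL-4 antibody, with 2 days between them and collection 2 days after the last. Cells of both groups were lavaged with 7 ml of PBS, seeded at 3000000 per well, left to adhere for 2 h, washed 3 times and cultured for 24 h before polyA RNA was taken. No uninjected group is among the samples, so a difference between the groups can lie with either injection, and the agent, the number of injections and the time since the last one cannot be told apart. Whether each library comes from its own mouse is not in the labels. The p-values therefore speak only of the spread between these libraries, which may be technical. Adhesion was the only selection named, and in bulk RNA fewer cells of a type and less RNA per cell cannot be told apart.

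Depth was 36834127 to 38543976 estimated counts in the TG libraries and 31501941 to 38311236 in the IL4c libraries, so 3 counts correspond to 0.0707 to 0.0974 CPM (a count set against its library's TMM-scaled total), which covers counting error only. Markers of the labelled cell type were present: all 16 pan-macrophage genes were tested, with a summed level of 42616 to 46331 CPM in TG and 42210 to 55413 CPM in IL4c. TG replicate 1 stood apart from the other libraries of its group. It lay at −2.0 on the first principal component of the untreated libraries, between the other TG libraries at −79.4 and −73.8 and the IL4c libraries at 33.8 to 61.7. It was as far from TG replicates 2 and 3, with a root mean square log2 distance of 1.09 and 1.07, as from the IL4c libraries (1.01 to 1.04), whereas TG 2 and 3 lay 0.447 apart. B cell markers summed to 3242 CPM in TG replicate 1, 424 and 436 CPM in TG 2 and 3, and 322 to 645 CPM in IL4c. Fibroblast and mesothelial markers went the other way, at 6.51 CPM in TG replicate 1, 148 and 129 CPM in TG 2 and 3, and 7.32 to 19.2 CPM in IL4c. Markers of large resident macrophages summed to 7925 CPM in TG replicate 1 and 2657 and 3425 CPM in TG 2 and 3. In IL4c 1, 2 and 3 they summed to 16352, 18305 and 7437 CPM, so that IL4c replicate 3 lay below TG replicate 1. IL4c replicate 3 also lay apart within its group, at 0.682 and 0.621 from IL4c 1 and 2, which lay 0.462 apart. TG replicate 1 with SPARC also stood apart, at 81.7 beside 82.4 on the third component of all 12 libraries, against −30.4 to −16.1 for the other TG libraries. Where leaving out untreated TG replicate 1 changed the call of a named gene, the value or the outcome without it is given. List counts without it are given for some lists only.

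**Figure D1:**
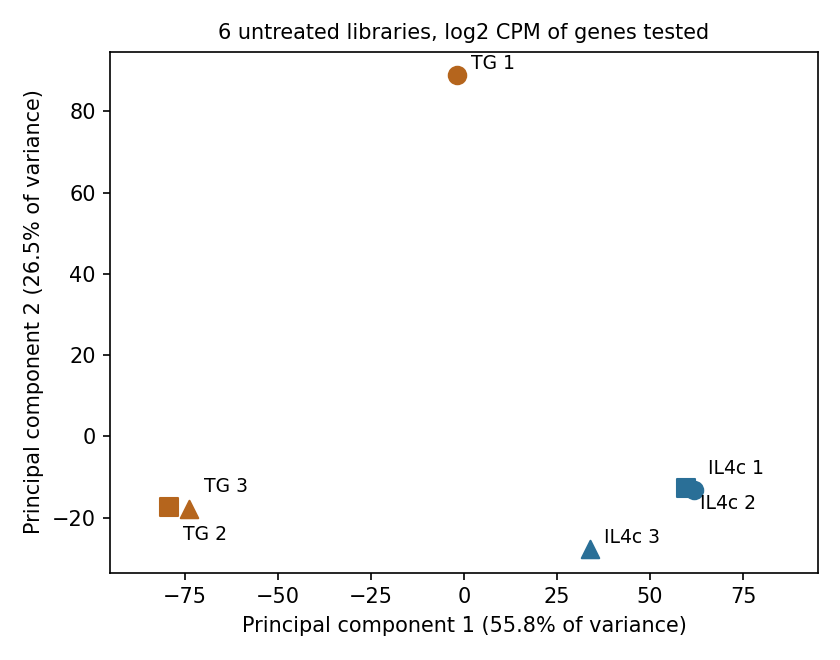
Position of the 6 untreated libraries on the first and second principal components of log2 CPM, with the share of variance on each axis, colour for the injection and shape for the replicate number. The first component separates the 3 IL4c libraries from TG replicates 2 and 3, and TG replicate 1 stands alone at the top, at 88.9 on the second component.

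Of 47729 genes in the files, 15232 had enough counts to test. In IL4c against TG, 3197 genes (21.0%) passed an adjusted p under 0.05 in edgeR's quasi-likelihood test, of which 1548 were higher in IL4c (10.2%) and 1649 lower (10.8%). The higher genes moved further: 804 of them differed by at least 2-fold and 171 by at least 8-fold, against 438 and 123 of the lower genes. The 3 libraries of one group did not overlap those of the other for 5938 genes (39.0%), including 3100 of the 3197 that passed. Fitted without the SPARC libraries, the 6 untreated libraries gave 1631 genes. Leaving out 1 library gave 1376 genes without TG 2, 1699 without TG 3, 1516 without IL4c 1, 1587 without IL4c 2 and 2509 without IL4c 3. Leaving out TG replicate 1 gave 4562 genes, 2316 higher and 2246 lower, and 2852 of the original 3197 (89.2%) passed again in the same direction. Of the 126 genes named here that passed, 84 also passed with each of the 6 untreated libraries left out in turn, and the others are listed with the alternatives at the end. Those fits kept the SPARC libraries. With the 6 untreated libraries fitted alone, 36 named genes lost their call, of 150 compared. The split between higher and lower depends on scaling. With libraries scaled to their total count, 1154 genes were higher and 2790 lower, so that 29.3% of the genes that passed were higher in place of 48.4%, and on log2(FPKM + 1) 933 were higher and 2422 lower (27.8% higher). Total-count scaling moved the median log2 difference of all genes from −0.05 to −0.17 and log2(FPKM + 1) moved it to −0.14. Small differences are therefore relative to the scaling used. Counts of list members below come from edgeR and stand beside these shares of all genes. For the large resident, complement, cholesterol synthesis, B cell, plasma cell, mast cell and fibroblast lists, no member had an unadjusted p under 0.05 in the direction where none was called, and DESeq2 and limma-voom called none there either. With TG replicate 1 left out, 2 cholesterol synthesis genes and 1 B cell marker passed as higher, and 1 complement gene as lower. The same fit moved other lists: iron and haem genes had 4 higher and 4 lower, Fc receptors 2 and 1, and chemokines 1 and 1. Antioxidant genes had 4 and 2, Toll-like receptor genes 5 and 3, and matrix and protease genes 7 and 6. In lipid storage 3 were lower, and 1 each in the coagulation, cell cycle and T cell lists.

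**Figure D2:**
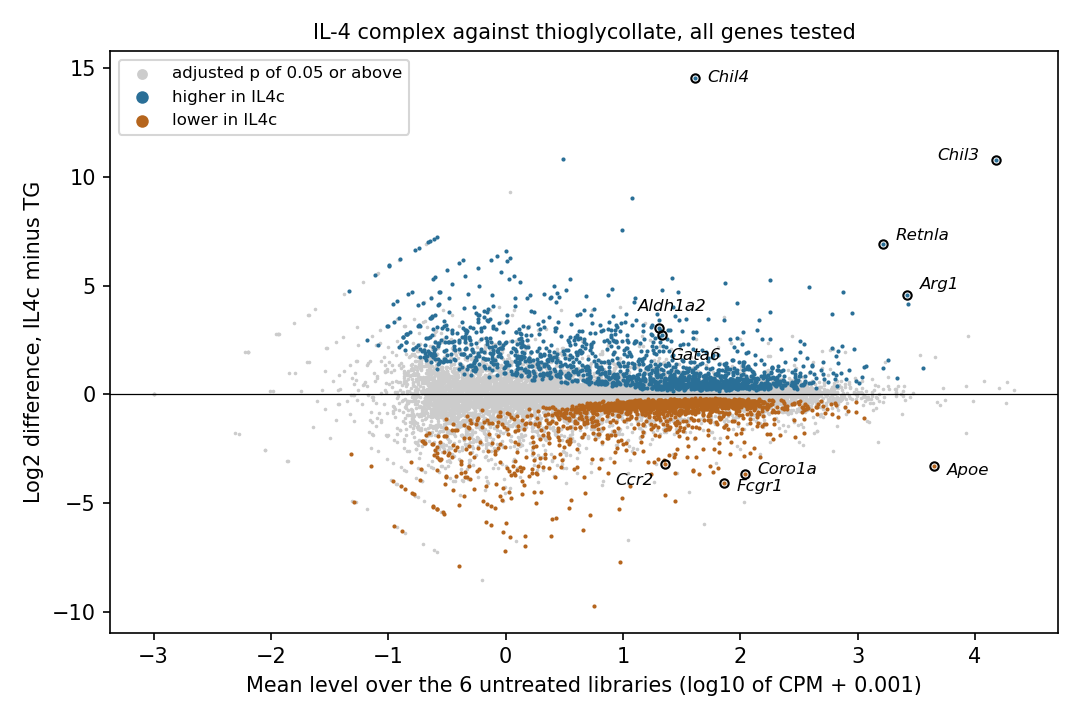
Log2 difference between IL4c and TG against the mean level over the 6 untreated libraries (log10 of CPM + 0.001) for each of the 15232 genes tested, with the 1548 genes that passed as higher in IL4c in blue, the 1649 that passed as lower in brown, and 10 genes of the text named. Chil3, Retnla and Arg1 lie at the upper right and Apoe at the lower right; the height of Chil4, which had no count in TG, depends on the fit's prior count.

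Most of the top transcripts were shared. Of the 10 genes with the highest FPKM, 8 were the same in both groups: Saa3, Lyz2, Fth1, Ftl1, Psap, Ctsd, mt-Co1 and an unnamed gene model. Per gene length, the IL4c libraries were led by Saa3, an acute-phase serum amyloid, with a mean of 32345 ± 9218 FPKM (SD, n = 3), and by Chil3, a chitinase-like secreted lectin also called Ym1, with 19973 ± 3624 FPKM. Saa3 varied within TG, at 15291 FPKM in replicate 1 against 767 and 1087 FPKM in replicates 2 and 3, and did not pass (+2.67 ± 1.04, adjusted p = 0.0944), but did without TG replicate 1 (+5.21, adjusted p = 0.00149). Fth1 did not pass in edgeR either (+0.62, adjusted p = 0.0662), but did without TG replicate 1. In TG the first place was held by Lyz2, the macrophage lysozyme, with 18507 ± 6282 FPKM, and the fourth by Apoe, the lipid carrier apolipoprotein E, with 8854 ± 733 FPKM. Apoe was among the top 10 in TG alone, and Chil3 and Retnla in IL4c alone.

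Alternative activation genes were more often higher than lower in IL4c. Of 30 tested members of this list, 14 were higher in IL4c and 1 was lower, with a median log2 difference of +1.96 against −0.05 over all genes tested. Without TG replicate 1 the counts were 19 and 2. Chil3 (chr3:106147554-106167564, minus strand, GRCm38) read 33.2, 9.91 and 8.38 CPM in the TG libraries and 35237, 30370 and 24357 CPM in the IL4c libraries. Every IL4c library thus exceeded every TG library by a wide margin, with a log2 difference of +10.77 ± 0.87, adjusted p = 0.000194. Chil4, its neighbour on the chromosome and a near copy (chr3:106201490-106219507, minus strand), had no count in any TG library and 79.3, 64.1 and 103 CPM in IL4c, which is at least 1080-fold higher when each TG library is set to 3 counts. Because Chil3 and Chil4 are so alike, the counting may have shared reads between them. Retnla, which encodes RELM alpha (chr16:48842551-48844461, plus strand), had 55.9, 8.55 and 17.1 CPM in the TG libraries and 3349, 3443 and 3019 CPM in the IL4c libraries, a log2 difference of +6.91 ± 0.86, adjusted p = 0.00137. Rnase2a, an eosinophil-type ribonuclease with several close relatives, had 4, 1 and 0 counts in TG and 448, 334 and 1752 counts in IL4c, a ratio of summed CPM of 594 (95% counting interval 254 to 1830, for counting error only). Its highest IL4c library was replicate 3.

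Other members of the list rose from a measurable level. Arg1, the arginase that turns arginine into ornithine and urea (chr10:24915221-24927484, minus strand), read 107, 311 and 227 CPM in the TG libraries and 6841, 5721 and 2692 CPM in the IL4c libraries, +4.56 ± 0.50, adjusted p = 0.00073. Its lowest IL4c library, replicate 3, was still several times the highest TG library. Slc7a2, a cationic amino acid transporter that brings arginine into the cell, read 45.6, 67.3 and 55.8 CPM in TG and 2103, 1122 and 1129 CPM in IL4c, +4.69 ± 0.55, adjusted p = 0.000958. Aldh1a2, which makes retinoic acid from retinal, was low but tight, at 4.67, 3.49 and 4.7 CPM in TG and 31.3, 38.8 and 38.6 CPM in IL4c, +3.08 ± 0.22, adjusted p = 0.000166. Mgl2, the galactose-type lectin CD301b, read 1.86, 1.04 and 1.5 CPM in TG and 21.1, 16 and 88 CPM in IL4c (+4.82 ± 0.85, adjusted p = 0.00565), with replicate 3 again highest. Klf4, a transcription factor, had 5.19, 11.3 and 11.8 CPM in TG and 96.8, 64.6 and 47.7 CPM in IL4c, +2.89 ± 0.38, adjusted p = 0.0018. The one member that fell was Myc, at −0.75 ± 0.16 (adjusted p = 0.0109). Ucp1, of thermogenesis in brown fat, was called higher but stayed below 1 CPM in every library.

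Several genes commonly used as signs of alternative activation did not pass. The mannose receptor gene Mrc1 read 318, 148 and 255 CPM in the TG libraries and 148, 139 and 649 CPM in the IL4c libraries, so that the groups overlapped and replicate 3 stood high within IL4c (+0.38 ± 0.82, adjusted p = 0.776). The transcription factor gene Irf4 differed by −0.68 ± 0.93 (adjusted p = 0.638), turned to +0.76, adjusted p = 0.539 without TG replicate 1, and passed when TG replicate 1 with SPARC was left out as well (+0.76, adjusted p = 0.0092). For Alox15, a 15-lipoxygenase, the libraries did not overlap, at 32, 1.23 and 0.709 CPM in TG and 261, 112 and 32.3 CPM in IL4c, yet the spread was wide (+3.57 ± 1.44, adjusted p = 0.104). Leaving out TG replicate 1 brought Alox15 to +7.13, adjusted p = 0.00682, Ccl24 from +2.48 ± 1.34 to +5.12, adjusted p = 0.026, and Pdcd1lg2, which encodes the checkpoint ligand PD-L2, from +2.15 ± 0.75 to +3.25, adjusted p = 0.0123. Pparg, a lipid-sensing nuclear receptor, had 6.46, 68.9 and 63.5 CPM in TG and 4.02, 3.57 and 13.4 CPM in IL4c, −2.72 ± 1.11, adjusted p = 0.107, and without TG replicate 1 −3.22, adjusted p = 0.037. The IL-4 receptor chain Il4ra differed by +0.50 ± 0.32 (adjusted p = 0.286; +0.92, adjusted p = 0.0307 without TG replicate 1) and Stat6 by +0.19 ± 0.13 (0.322).

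**Figure D3:**
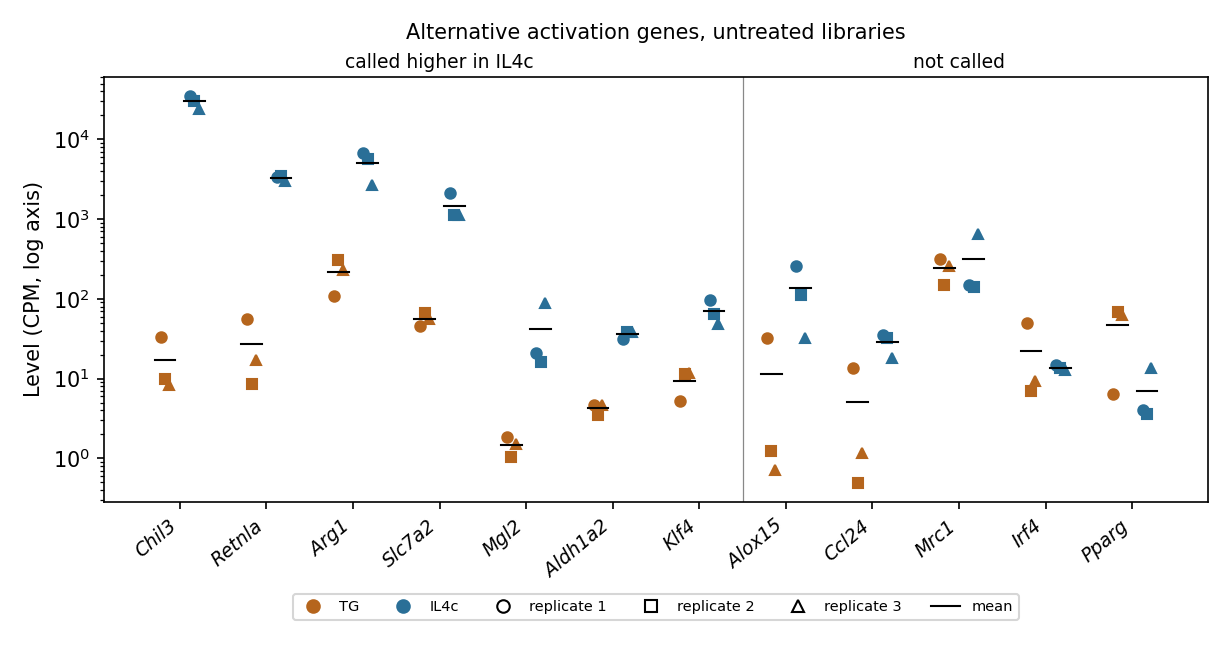
Level of 12 alternative activation genes in each untreated library (CPM, log axis), with colour for the injection, shape for the replicate number and a black bar for the group mean. For the 7 genes on the left all IL4c libraries lie above all TG libraries; among the 5 on the right Alox15 and Ccl24 do not overlap either but TG replicate 1 sits nearest to IL4c, and Mrc1 and Irf4 overlap.

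Upstream sequence is shown for the 3 members with the smallest p that have an entry in the RefSeq promoter table (GRCm38.p6), Aldh1a2, Chil4 and Chil3, and for Retnla, which was added because it is the one called member with a STAT6-type match. Each runs 5′ to 3′ on the gene's strand and ends before the first base of any transcript that RefSeq or GENCODE M21 begins there: Chil3 is chr3:106167565-106167814 (minus), Chil4 chr3:106219508-106219729 (minus), Retnla chr16:48842359-48842550 (plus) and Aldh1a2 chr9:71215539-71215788 (plus). Capitals mark TTC and GAA with 4 bases between them, a STAT6-type spacing, or TTCNNNGAA, the spacing of other STAT factors; both read the same on either strand.
Chil3: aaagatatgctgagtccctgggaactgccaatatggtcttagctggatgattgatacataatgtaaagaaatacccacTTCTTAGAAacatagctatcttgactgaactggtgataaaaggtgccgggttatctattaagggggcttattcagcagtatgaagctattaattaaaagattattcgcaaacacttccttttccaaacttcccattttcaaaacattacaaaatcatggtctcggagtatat
Chil4: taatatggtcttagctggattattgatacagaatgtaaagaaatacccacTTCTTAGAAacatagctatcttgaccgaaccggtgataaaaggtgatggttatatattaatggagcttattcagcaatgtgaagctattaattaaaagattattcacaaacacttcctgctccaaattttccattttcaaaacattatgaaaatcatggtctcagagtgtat
Retnla: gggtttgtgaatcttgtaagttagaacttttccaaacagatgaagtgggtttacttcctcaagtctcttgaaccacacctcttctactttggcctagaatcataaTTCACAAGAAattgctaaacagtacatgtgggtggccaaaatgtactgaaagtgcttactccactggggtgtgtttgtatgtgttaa
Aldh1a2: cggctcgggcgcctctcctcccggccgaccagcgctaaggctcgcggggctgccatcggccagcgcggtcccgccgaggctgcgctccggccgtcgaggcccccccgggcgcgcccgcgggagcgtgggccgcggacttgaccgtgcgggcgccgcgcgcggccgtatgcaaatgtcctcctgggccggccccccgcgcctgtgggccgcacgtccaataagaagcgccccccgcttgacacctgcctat
Retnla holds TTCACAAGAA, which begins 145 bases before the RefSeq start. The same TTCTTAGAA begins 172 bases before the RefSeq start of Chil3 and 200 bases before that of Chil4. The printed Chil4 stretch ends 28 bases before its RefSeq start and that of Chil3 at it, so the 2 distances do not show a different spacing. The 2 upstream stretches are not independent, since 202 of 221 aligned bases (91.4%) are identical. Aldh1a2 holds neither. The STAT6-type spacing was in 1 of the 9 promoters found for the 14 members called higher (11.1%), against 5.85% of all 32851 promoters of the table and 4.74% of the 13034 promoters of tested genes. TTCNNNGAA, searched after the sequences had been seen, was in 3 of the 9, against 7.02% and 6.01%. These matches are a description of letters and do not show binding.

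In arginine handling, single genes of uptake and of the first step were higher in IL4c. In the arginine and polyamine list 3 of 16 tested members were higher and 2 lower, with a median of −0.19, beside 10.2% and 10.8% of all genes. The 3 that rose were Arg1, Slc7a2 and a second cationic transporter, Slc7a1, which read 19.9, 21.4 and 19.2 CPM in TG and 76.2, 44.5 and 49 CPM in IL4c (+1.49 ± 0.25, adjusted p = 0.00468). The 2 that fell act later in polyamine metabolism: Amd1, an S-adenosylmethionine decarboxylase (−0.42 ± 0.12, adjusted p = 0.0391), and the spermine oxidase Smox (−0.62 ± 0.19, adjusted p = 0.042), which did not pass without TG replicate 1 (−0.40, adjusted p = 0.085). The list counts moved with the setting: 5 higher and 5 lower without TG replicate 1, 3 and 5 with total-count scaling, and 3 and 1 in limma-voom.

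Genes of large resident macrophages were higher in IL4c. Of 24 tested members, 12 were higher and none was lower, with a median of +2.37, and without TG replicate 1 the count was 21 higher, with a median of +3.95. Gata6 read 5.89, 5.03 and 5.57 CPM in the TG libraries and 46.2, 46.2 and 19 CPM in the IL4c libraries. The groups did not overlap and IL4c replicate 3 was the lowest of its group (+2.75 ± 0.50, adjusted p = 0.00594). Rarb, a retinoic acid receptor, was the most even, at 2.03, 1.33 and 1.26 CPM in TG and 12.3, 12.1 and 11.6 CPM in IL4c, +2.96 ± 0.26, adjusted p = 0.00023. F10, coagulation factor X, read 140.1, 137 and 117 CPM in TG and 735, 521 and 293 CPM in IL4c, +1.97 ± 0.32, adjusted p = 0.00369, and Garnl3 read 2.31, 0.547 and 0.84 CPM in TG and 18.8, 18.6 and 8.36 CPM in IL4c, +3.62 ± 0.64, adjusted p = 0.00567. Serpinb2, an inhibitor of plasminogen activators, ran from 1303, 724 and 201 CPM in IL4c down to 59.1, 4.59 and 9.14 CPM in TG (+4.93 ± 1.45, adjusted p = 0.038), with TG replicate 1 the highest of its group. For 6 of the 24 members TG replicate 1 lay within or above the IL4c range, among them the next 3. Timd4, the phosphatidylserine receptor TIM-4, read 13.3, 0.469 and 0.368 CPM in TG and 35.8, 23.2 and 8.47 CPM in IL4c (+2.24 ± 1.11, adjusted p = 0.175), and without TG replicate 1 the difference was +5.74, adjusted p = 0.00102. Icam2 went from +1.22 ± 0.57, adjusted p = 0.154 to +2.04, adjusted p = 0.0182. Cxcl13, a B cell chemokine, read 438, 14.6 and 21.8 CPM in TG and 27.8, 43 and 21.4 CPM in IL4c, with a difference of −2.36 ± 1.26 (adjusted p = 0.205) that became +0.76, adjusted p = 0.538 without it. AGATAA, the core that GATA factors bind, was in 1 of the 12 promoters of the 10 called members in the table (8.33%), beside 6.11% for tested genes, and the STAT6-type spacing in none of the 12. TTCNNNGAA was in 2 of the 12 (16.7%), beside 6.01% for tested genes, so it was not confined to the alternative activation genes.

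Markers of monocytes and small macrophages were lower in IL4c for 6 of 18 tested members and higher for none in edgeR, with a median of −0.88. In the other direction 1 member had an unadjusted p under 0.05, and DESeq2, limma-voom and limma on log2(FPKM + 1) each called 1 higher. Of the 18 members 6 had a positive and 12 a negative difference. The summed level went the other way, at 4456, 1646 and 1977 CPM in TG and 7411, 7167 and 3847 CPM in IL4c. Fn1, a member not called in edgeR, read 467, 133 and 188 FPKM in TG and 1058, 969 and 498 FPKM in IL4c. Ccr2, the receptor that brings monocytes out of the marrow, read 61, 32.5 and 30 CPM in the TG libraries and 2.56, 5.14 and 5.83 CPM in the IL4c libraries, with no overlap (−3.19 ± 0.39, adjusted p = 0.0012). Cx3cr1, the fractalkine receptor, read 18.7, 5.29 and 6.78 CPM in TG and 0.195, 0.0605 and 0.373 CPM in IL4c (−5.56 ± 0.88, adjusted p = 0.00364). S100a6 overlapped at one point, at 46, 171 and 153 CPM in TG and 27.3, 19.1 and 48.6 CPM in IL4c (−1.96 ± 0.49, adjusted p = 0.0213), and Spn, or CD43, read 13.4, 6.57 and 5.49 CPM in TG and 2.04, 1.54 and 3.97 CPM in IL4c (−1.75 ± 0.47, adjusted p = 0.0269; without TG replicate 1 −1.24, adjusted p = 0.055). Ly6c2, a classical monocyte gene with near-identical neighbours, was a matter of few counts: 604, 38 and 19 in TG and 1, 2 and 7 in IL4c (−5.70 ± 1.73, adjusted p = 0.0419). Most of them came from TG replicate 1, and without it Ly6c2 no longer passed (−2.87, adjusted p = 0.186). Over the list, leaving out that library gave 4 members lower and 4 higher, with a median of −0.28.

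**Figure D4:**
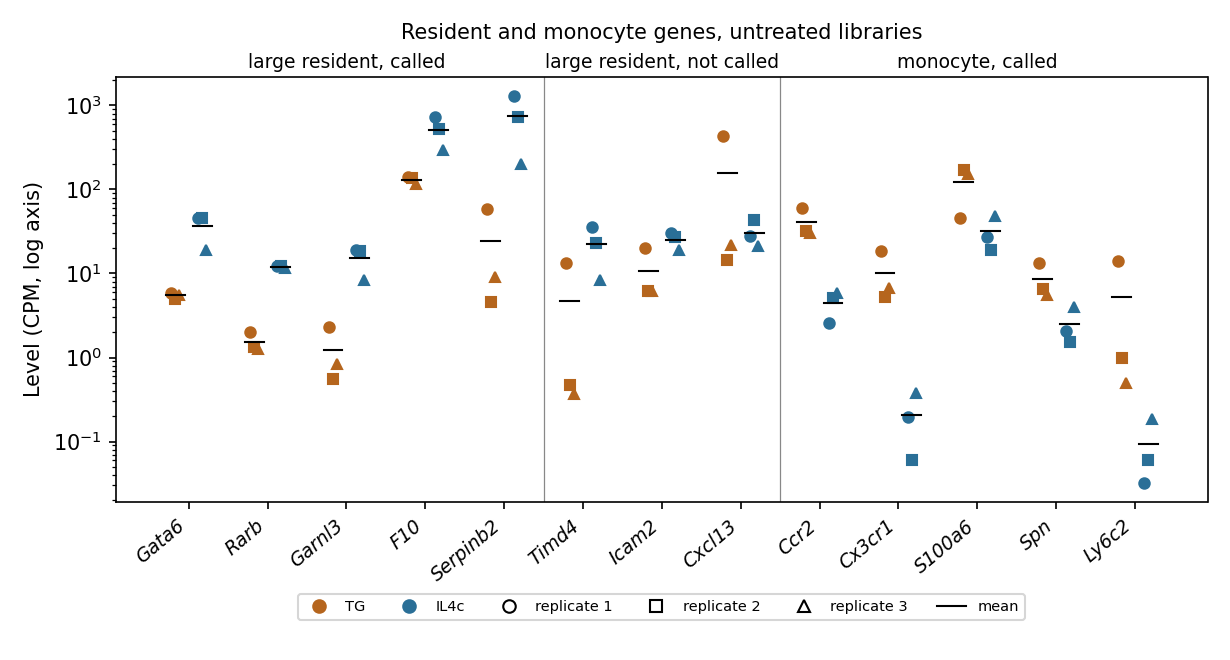
Level of large resident and monocyte genes in each untreated library (CPM, log axis), with colour for the injection, shape for the replicate number and a black bar for the group mean. Gata6, Rarb, Garnl3, F10 and Serpinb2 are higher in all IL4c libraries; for Timd4, Icam2 and Cxcl13 TG replicate 1 lies within or above the IL4c range; Ccr2 and Cx3cr1 are lower in all IL4c libraries.

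Several genes of secreted, plasma-type proteins were higher in IL4c as well. In the coagulation list 6 of 16 tested members were higher and none lower in edgeR, although the median was +0.01, 1 had an unadjusted p under 0.05 as lower, and DESeq2 and log2(FPKM + 1) each called 1 lower. Besides F10, Serpinb2 and F5 those higher included Pros1, or protein S, at 111, 63.2 and 77.7 CPM in TG and 363, 428 and 291 CPM in IL4c (+2.10 ± 0.23, adjusted p = 0.000677), and thrombomodulin, Thbd, at 61.2, 79.2 and 76.4 CPM in TG and 198, 218 and 160.1 CPM in IL4c (+1.41 ± 0.25, adjusted p = 0.00561). F5, Serpinb2 and F10 are also members of the large resident list. In the complement list 5 of 19 were higher and none lower. They included the receptor Vsig4 (+2.95 ± 0.68, adjusted p = 0.015), C1ra (+1.14 ± 0.31, adjusted p = 0.0275) and C4b, which has a near copy in the genome and read 724, 50 and 75.4 CPM in TG and 5914, 7080 and 2138 CPM in IL4c (+4.16 ± 1.25, adjusted p = 0.0408). Eicosanoid enzymes and receptors were higher in 4 of 19 and lower in 1. The leukotriene C4 synthase Ltc4s read 3.23, 1.41 and 1.52 CPM in TG and 15.4, 13.9 and 12.3 CPM in IL4c (+2.75 ± 0.36, adjusted p = 0.00152), the prostacyclin synthase Ptgis rose by +3.44 ± 0.60 (adjusted p = 0.0054), and the phospholipase Pla2g4a by +1.27 ± 0.34 (0.0263). Without TG replicate 1 the eicosanoid count was 11 higher and 1 lower.

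Single receptor and adhesion genes differed in both directions. Of 21 integrins and related molecules, 3 were higher and 3 lower, beside 10.2% and 10.8% of all genes. Itgal, the alpha chain of LFA-1, fell at 164, 97.8 and 94.3 CPM in the TG libraries and 9.09, 8.65 and 15.9 CPM in the IL4c libraries (−3.40 ± 0.31, adjusted p = 0.000335), and Itgam, the alpha chain of Mac-1, rose at 1434, 633 and 667 CPM in TG and 2935, 2992 and 2203 CPM in IL4c (+1.57 ± 0.32, adjusted p = 0.00949). Cd44, the hyaluronan receptor, was lower (−0.71 ± 0.11, adjusted p = 0.00345), as was Itgb5 (−1.35 ± 0.30, adjusted p = 0.0142). Of the 16 pan-macrophage genes 4 were higher and 2 lower. Adgre1, which encodes F4/80, was higher, at 1424, 734 and 782 CPM in TG and 2376, 2563 and 1988 CPM in IL4c (+1.24 ± 0.27, adjusted p = 0.0122). Among 9 Fc receptors, 2 were lower and none was higher in edgeR with TMM scaling, although 2 had an unadjusted p under 0.05 as higher and RLE scaling, DESeq2 and limma-voom each called 2 higher. Fcgr1, the high-affinity IgG receptor CD64 (chr3:96282909-96293969, minus strand), read 103, 186 and 126 CPM in the TG libraries and 5.84, 12 and 6.92 CPM in the IL4c libraries. All IL4c libraries lay far below TG (−4.06 ± 0.48, adjusted p = 0.000991). Coro1a, an actin regulator of leukocytes, fell from 253, 182 and 173 CPM to 20, 17.4 and 11.1 CPM (−3.65 ± 0.23, adjusted p = 0.000166), and the metalloprotease gene Adam19 from 66.3, 39.3 and 47.6 to 4.58, 4.27 and 3.52 CPM (−3.63 ± 0.40, adjusted p = 0.000741).

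Of the scavenger receptor list 2 of 15 were higher and 1 lower, of the efferocytosis list 2 of 20 higher and 3 lower, and of the C-type lectins 3 of 21 higher and 1 lower. Leaving out TG replicate 1 gave 6 higher and 2 lower, 3 and 3, and 7 and 2, in the same order. Cd5l, a secreted scavenger protein of tissue macrophages, read 132, 104 and 129 CPM in TG and 1664, 1729 and 1567 CPM in IL4c (+3.76 ± 0.47, adjusted p = 0.00128). Stab1, or stabilin-1, went the other way, at 333, 204 and 304 CPM in TG and 55.6, 85.7 and 100 CPM in IL4c (−1.80 ± 0.26, adjusted p = 0.00237). Axl, a receptor for bridged phosphatidylserine, fell from 62.1, 34.7 and 32.2 to 5.13, 8.47 and 5.08 CPM (−2.79 ± 0.42, adjusted p = 0.00307), while Pros1, which encodes one of its family's bridging ligands, rose. Besides Mgl2, the lectins Cd209d (+4.64 ± 0.74, adjusted p = 0.00584) and Cd209a (+3.35 ± 0.83, adjusted p = 0.0201) were higher, and Clec12a was lower (−1.43 ± 0.41, adjusted p = 0.0338). Of 15 chemokine receptors, 3 were higher and 3 lower. Ackr3, a decoy receptor for CXCL12, went from 0.165, 0.0782 and 0.0525 CPM to 32.3, 23.1 and 2.82 CPM (+7.54 ± 1.20, adjusted p = 0.00367), with IL4c replicate 3 well below replicates 1 and 2. Ccr1 (+1.13 ± 0.31, adjusted p = 0.0298) and Cxcr4 (+0.79 ± 0.22, adjusted p = 0.0306) rose less, and Cxcr3 fell from 2.76, 1.88 and 1.76 CPM to 0.162, 0.242 and 0.346 CPM (−3.06 ± 0.51, adjusted p = 0.00415).

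Of 18 class II genes, 1 was higher and 1 lower, with a median of −0.78. Leaving out TG replicate 1 gave 5 higher and 1 lower, with a median of +0.11. H2-Eb1 read 1000, 202 and 183 CPM in TG and 119, 121 and 116 CPM in IL4c (−1.96 ± 0.60, adjusted p = 0.0437), and the thiol reductase Ifi30 rose by +0.69 ± 0.21 (adjusted p = 0.0445). TG replicate 1 held the highest class II levels: Cd74, the invariant chain, read 3647, 688 and 682 CPM in TG and 706, 639 and 783 CPM in IL4c (−1.24 ± 0.64, adjusted p = 0.192), and without that library it differed by +0.06, adjusted p = 0.923, while H2-Eb1 differed by −0.69, adjusted p = 0.0871. B cells also express these genes, and B cell markers were highest in the same library; their part in the result was not tested.

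In the NF-kB and cytokine list 2 of 26 were higher and 4 lower, near the 10.2% and 10.8% of all genes. Tnf read 10.3, 10.8 and 6.75 CPM in the TG libraries and 5, 2.18 and 2.16 CPM in the IL4c libraries (−1.58 ± 0.43, adjusted p = 0.0295), with no overlap. The feedback inhibitors Tnfaip3 (−0.95 ± 0.20, adjusted p = 0.00995) and Tnip1 (−0.69 ± 0.17, adjusted p = 0.0191) were also lower, and Il1a was higher (+1.11 ± 0.29, adjusted p = 0.0249). Il1b (−1.08 ± 0.96, adjusted p = 0.451) and Il6 (+1.58 ± 1.18, adjusted p = 0.367) did not pass, and Il6 stayed below 2 CPM throughout. Of 23 chemokines none was higher in edgeR, where 3 had an unadjusted p under 0.05 in that direction, while DESeq2 called 2 higher and limma-voom 1 higher and 0 lower. In edgeR 3 were lower: Ccl5 (−1.88 ± 0.52, adjusted p = 0.0305; −0.93, adjusted p = 0.0584 without TG replicate 1) and the interferon-gamma-induced Cxcl9 and Cxcl10. Cxcl9 had 97, 128 and 10 counts in TG and 0, 0 and 1 in IL4c, and Cxcl10 had 33, 59 and 13 counts against 0, 1 and 8. Without TG replicate 1 Cxcl10 no longer passed (adjusted p = 0.0501). Of 43 interferon-induced genes 2 were higher and 5 lower, with a median of −0.48, and without TG replicate 1 the counts were 6 and 2. Oasl1 was the clearest rise, at 3.58, 3.21 and 4.15 CPM in TG and 7.53, 9.5 and 13.3 CPM in IL4c (+1.47 ± 0.26, adjusted p = 0.00557), and Usp18 rose by +0.83 ± 0.24 (0.0333), whereas Oas3 (−1.10 ± 0.24, adjusted p = 0.0117), Ifit1 (−1.15 ± 0.30, adjusted p = 0.0243) and Igtp (−1.61 ± 0.46, adjusted p = 0.035) were lower. Without TG replicate 1 neither Ifit1 (−0.91, adjusted p = 0.0541) nor Igtp (−1.58, adjusted p = 0.0509) passed. Irf7 read 48.6, 25.1 and 18.3 CPM in TG and 46.8, 60.4 and 59.8 CPM in IL4c (+0.86 ± 0.30, adjusted p = 0.0704) and passed without TG replicate 1 (+1.37, adjusted p = 0.00175). In the Toll-like receptor list 2 of 26 were higher and 2 lower: Lbp (+2.02 ± 0.40, adjusted p = 0.00867) and Ly96, the MD-2 co-receptor (+0.36 ± 0.10, adjusted p = 0.0343), against Tlr9 (−2.08 ± 0.42, adjusted p = 0.00918) and Irak1 (−0.27 ± 0.07, adjusted p = 0.0263). Tlr4 itself differed by +0.35 ± 0.12 (adjusted p = 0.0612).

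In the matrix and protease list 4 of 25 were higher and 4 lower (4 and 2 in limma-voom), beside 10.2% and 10.8% of all genes. Mmp14, a membrane collagenase, was lower at 312, 243 and 239 CPM in TG and 121, 131 and 111 CPM in IL4c (−1.13 ± 0.13, adjusted p = 0.000943), and the sheddase Adam9 was higher at 240.3, 192 and 213 CPM in TG and 465, 462 and 362 CPM in IL4c (+1.00 ± 0.12, adjusted p = 0.00121). The basement membrane collagen genes Col4a1 (−2.73 ± 0.48, adjusted p = 0.00557) and Col4a2 (−2.99 ± 0.63, adjusted p = 0.0107) were lower, and Timp1 (+1.83 ± 0.43, adjusted p = 0.0158) was higher. Sparc, which encodes the protein added to the other wells, read 1.23, 36.3 and 28.4 CPM in the TG libraries and 0.811, 0.484 and 2.18 CPM in the IL4c libraries. TG replicates 2 and 3 were high and TG replicate 1 lay within the IL4c range (−4.22 ± 1.22, adjusted p = 0.0359). Fibroblast genes followed the same order over the libraries: Col1a1 read 1.65, 28.2 and 27.1 CPM in TG and 0.422, 0.272 and 1.36 CPM in IL4c (−4.76 ± 1.21, adjusted p = 0.0224), and of 8 tested fibroblast and mesothelial markers 2 were lower in IL4c and none higher, or 6 without TG replicate 1. Their part in the Sparc result was not tested.

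Among the lipid lists, fatty acid oxidation genes were more often higher in IL4c and cholesterol synthesis genes more often lower. Of 26 fatty acid oxidation genes 9 were higher and 2 lower, by modest amounts. Acsl4, which activates long-chain fatty acids, read 117, 101 and 106 CPM in TG and 207, 171 and 199 CPM in IL4c (+0.83 ± 0.09, adjusted p = 0.000739), and Etfa (+0.60 ± 0.09, adjusted p = 0.00264), Acadl (+0.70 ± 0.12, adjusted p = 0.00483) and Hadh (+0.66 ± 0.11, adjusted p = 0.00497) rose as well. With total-count scaling 6 were higher and 3 lower, and on log2(FPKM + 1) 6 of 24 were higher and 2 lower. Of 23 cholesterol synthesis genes none was higher and 10 were lower, with a median of −0.47. The synthase gene Hmgcs1, early in the pathway, read 121, 105 and 122 CPM in the TG libraries and 78.2, 77.5 and 73.1 CPM in the IL4c libraries (−0.60 ± 0.09, adjusted p = 0.00315). Nsdhl (−0.46 ± 0.09, adjusted p = 0.00602) and Fdps (−1.03 ± 0.20, adjusted p = 0.00823) were lower too, and under both other count scalings 10 to 13 members were lower and none higher. Leaving out TG replicate 1 gave 10 members lower and 2 higher. Of 14 liver X receptor targets and partners 1 was higher and 2 lower. Apoe (chr7:19696109-19699188, minus strand) read 7906, 7663 and 8916 CPM in the TG libraries and 471, 1306 and 695 CPM in the IL4c libraries, a fall of every IL4c library well below TG (−3.31 ± 0.40, adjusted p = 0.00108), and the receptor gene Nr1h3 read 22.1, 51 and 50.6 CPM in TG and 15.4, 15.2 and 15.9 CPM in IL4c (−1.41 ± 0.27, adjusted p = 0.0076), while Lpcat3 rose (+0.71 ± 0.16, adjusted p = 0.0126). In the lipid storage list none of 17 passed in edgeR, where 3 had an unadjusted p under 0.05, while DESeq2 called 1 lower and limma-voom 0. The lipoprotein lipase gene Lpl read 1052, 3552 and 2802 CPM in TG and 255, 336 and 1026 CPM in IL4c (−2.19 ± 0.97, adjusted p = 0.133).

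Single genes of energy metabolism differed. Of 25 glycolysis genes 5 were higher and 3 lower, beside 10.2% and 10.8% of all genes. Pfkl, a phosphofructokinase, read 116, 120.4 and 103 CPM in TG and 303, 284 and 196 CPM in IL4c (+1.21 ± 0.18, adjusted p = 0.00288), Gpi1 rose by +0.74 ± 0.17 (adjusted p = 0.0164), and the glucose transporter gene Slc2a3 was lower (−1.22 ± 0.22, adjusted p = 0.00584). Of 35 genes of the citric acid cycle and respiratory chain 3 were higher and 1 lower, below the 10.2% and 10.8% of all genes. Leaving out TG replicate 1 gave 7 higher and 1 lower. Uqcrfs1 (+0.54 ± 0.10, adjusted p = 0.0056) and Idh3b (+0.73 ± 0.13, adjusted p = 0.00573) rose, and Ndufa4 read 71.5, 66 and 62.8 CPM in TG and 22, 20.1 and 26.4 CPM in IL4c (−1.55 ± 0.17, adjusted p = 0.000758). Of 26 lysosomal genes 3 were higher and 2 lower, led by the acid glucosidase Gaa, at 133, 142 and 159 CPM in TG and 308, 287 and 313 CPM in IL4c (+1.07 ± 0.11, adjusted p = 0.000559), and cathepsin F, Ctsf, at 8.49, 3.44 and 5.02 CPM in TG and 19.6, 26.5 and 22.6 CPM in IL4c (+2.02 ± 0.32, adjusted p = 0.00365). Of 20 antioxidant genes 3 were higher, with the lipid peroxidase Gpx4 first (+0.52 ± 0.09, adjusted p = 0.00579), and none lower in edgeR, although 1 had an unadjusted p under 0.05 as lower and DESeq2, total-count scaling and log2(FPKM + 1) each called 1 lower. Of 20 iron and haem genes none was higher in edgeR, where 2 had an unadjusted p under 0.05 in that direction, while RLE scaling and limma-voom called 1 higher and DESeq2 2. Those lower in edgeR were 2, the metal transporters Slc11a1 (−0.55 ± 0.14, adjusted p = 0.0191) and Slc11a2 (−0.82 ± 0.15, adjusted p = 0.00557).

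Among 41 macrophage transcription factors 9 were higher and 7 lower, beside 10.2% and 10.8% of all genes. Besides Rarb, Klf4 and Gata6, the rises included Cebpb, at 150.4, 136 and 156 CPM in TG and 279, 264 and 203 CPM in IL4c (+0.75 ± 0.18, adjusted p = 0.0189). The falls were led by Id3 (−1.39 ± 0.22, adjusted p = 0.00383) and Irf5 (−1.02 ± 0.17, adjusted p = 0.00497), the second of them an interferon regulatory factor of inflammatory macrophages, at 139, 229 and 189 CPM in TG and 88.4, 91.4 and 94.6 CPM in IL4c. Of 27 growth factor genes 1 was higher and 4 lower, including Pdgfb, at 20.2, 20.5 and 23.2 CPM in TG and 8.15, 8.02 and 9.05 CPM in IL4c (−1.34 ± 0.29, adjusted p = 0.0113), and Smad7, an inhibitor of TGF-beta signalling (−1.44 ± 0.33, adjusted p = 0.0146). Of 38 cell cycle genes none passed in edgeR, 1 had an unadjusted p under 0.05, DESeq2 and limma-voom called 0, and the median was +0.47. Mki67, a marker of dividing cells, read 77.7, 14.6 and 23 CPM in the TG libraries and 59.3, 63.9 and 111 CPM in the IL4c libraries (+1.02 ± 0.79, adjusted p = 0.383), highest in IL4c replicate 3 and next highest in TG replicate 1.

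The 12 largest rises and falls that met the naming rule include genes outside the lists. Aqp9, a channel for water and glycerol, read 1.49, 1.15 and 1.08 CPM in TG and 76.3, 41 and 35.6 CPM in IL4c (+5.36 ± 0.49, adjusted p = 0.000362). Kcnn3, a calcium-activated potassium channel, read 22, 2.16 and 2.86 CPM in TG and 432, 415 and 205 CPM in IL4c (+5.28 ± 1.16, adjusted p = 0.0126), Lrg1, a leucine-rich glycoprotein, 11.4, 0.365 and 0.446 CPM in TG and 191, 199 and 43.9 CPM in IL4c (+5.14 ± 1.46, adjusted p = 0.0335), and Car6, a secreted carbonic anhydrase, 4.62, 0.73 and 1.08 CPM in TG and 68.8, 47.3 and 54.9 CPM in IL4c (+4.72 ± 0.83, adjusted p = 0.00552). TG replicate 1 was the highest TG library for all 4. Among the falls, Ms4a6b read 70.5, 29.8 and 31.9 CPM in TG and 1.07, 1.57 and 2.69 CPM in IL4c (−4.62 ± 0.83, adjusted p = 0.00595) and Ms4a4a 134, 28.9 and 52.7 CPM in TG and 2.69, 10.6 and 5.64 CPM in IL4c (−3.51 ± 0.67, adjusted p = 0.00747), both of a family with close relatives. Pianp (−3.67 ± 0.74, adjusted p = 0.00885), Ggta1, which makes the alpha-gal sugar (−3.55 ± 0.69, adjusted p = 0.00768), Gadd45b, of the stress response (−3.49 ± 0.58, adjusted p = 0.00462), and Gdf3, a TGF-beta family ligand (−3.11 ± 0.91, adjusted p = 0.0374), completed them.

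**Figure D5:**
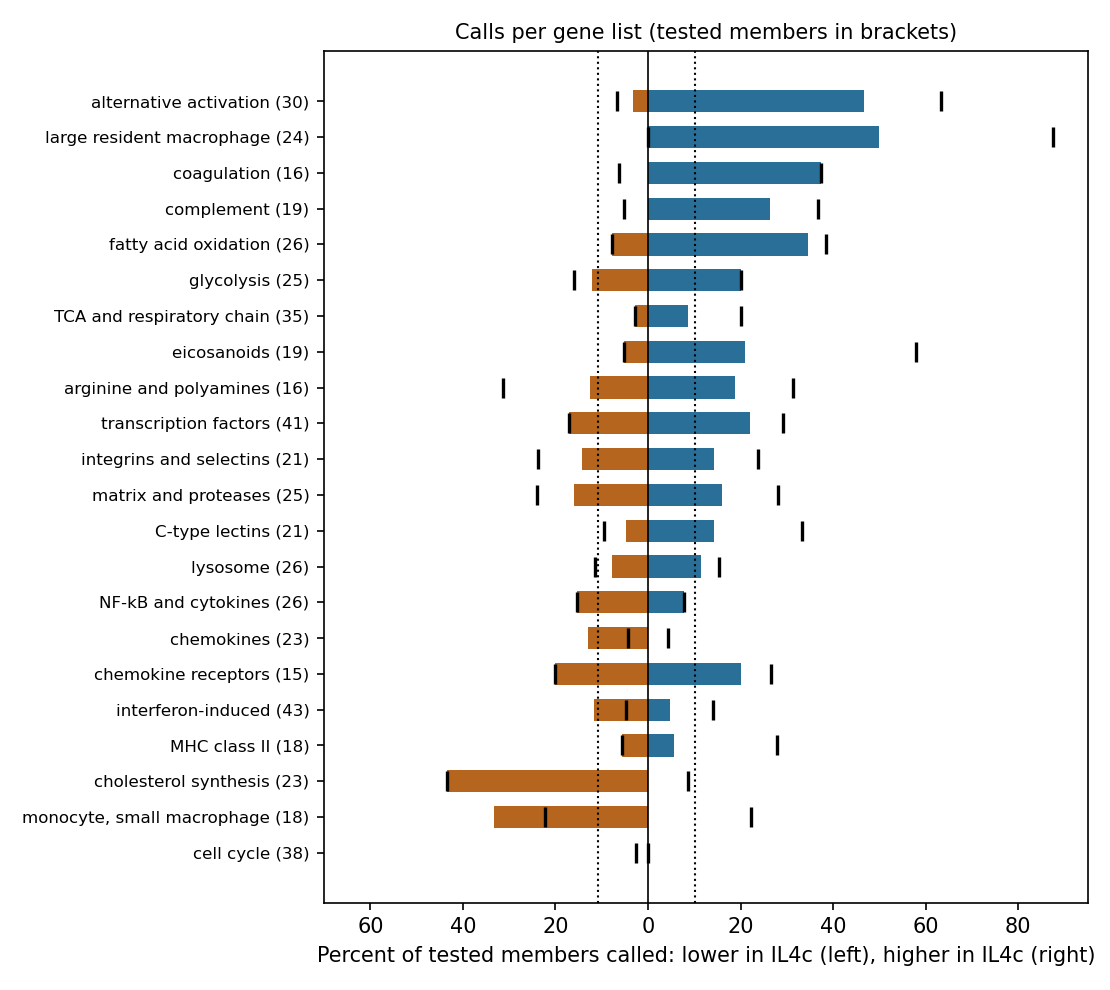
Percent of the tested members of 22 gene lists that passed as lower (brown, left) or higher (blue, right) in IL4c; black ticks give the percent without TG replicate 1 and dotted lines the percent of all genes tested, 10.8 lower and 10.2 higher. Alternative activation, large resident, coagulation and fatty acid oxidation genes lie furthest to the right of the line and cholesterol synthesis and monocyte genes furthest to the left, and the ticks lie farthest from the bars for large resident and eicosanoid genes.

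Markers of the other cell types that an adherent lavage could hold were read in the same way. Of 16 B cell markers 1 was lower, the sialic acid receptor Cd22 (−1.42 ± 0.17, adjusted p = 0.000898), and none higher. Of 9 plasma and B-1 cell markers 3 were lower and none higher, including Prdm1, which macrophages also express, at 33.9, 41.2 and 35.5 CPM in TG and 12.3, 16.6 and 10.2 CPM in IL4c (−1.50 ± 0.16, adjusted p = 0.000653). None of 10 T cell, 5 natural killer, 4 neutrophil or 4 eosinophil markers tested passed, nor did any of 6 endothelial, platelet and red cell markers in edgeR. At an unadjusted p under 0.05 there were 2 T cell, 2 natural killer, 0 neutrophil, 1 eosinophil and 2 endothelial, platelet and red cell markers. DESeq2 and limma-voom each called 1 natural killer and 1 eosinophil marker higher, and DESeq2 called 1 T cell marker and 1 of the endothelial, platelet and red cell list lower. Of 7 mast cell markers 2 were higher and none lower, on few counts: Mcpt4 had 1, 1 and 0 counts in TG and 31, 6 and 5 in IL4c. Of 9 dendritic cell markers 1 was higher, Cd209a, and 1 lower, Flt3 (−3.99 ± 0.98, adjusted p = 0.0195).

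In the wells with SPARC, 3196 genes passed (21.0%), 1664 higher in IL4c and 1532 lower. These libraries are not an independent repeat. The labels do not state whether wells of the same number hold cells of the same mice, but deviations from the group means of same-numbered untreated and SPARC libraries correlated at 0.533 to 0.735 in TG and 0.342 to 0.61 in IL4c, and each library correlated best with its own number. The margin was small in places: TG libraries numbered 2 and 3 correlated with each other at 0.507 and 0.448, and IL4c libraries numbered 1 and 2 at 0.19 and 0.158. Of the 3197 genes called in untreated wells 1737 (54.3%) were called in the same direction with SPARC, which is also 54.3% of the calls with SPARC, and 7 were called in opposite directions. Whether called with SPARC or not, 3023 of the 3197 (94.6%) had the same sign there. With SPARC the log2 differences were +10.48 ± 0.86 for Chil3, +6.92 ± 0.87 for Retnla, +3.03 ± 0.23 for Aldh1a2, +3.58 ± 0.52 for Gata6 and −3.32 ± 0.40 for Ccr2, beside +10.77, +6.91, +3.08, +2.75 and −3.19 in the untreated wells.

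The test of whether IL4c against TG differed between wells depended on whether same-numbered wells were treated as pairs. Without a block no gene passed in edgeR, where the smallest adjusted p was 0.0616 and 1612 genes (10.6%) had an unadjusted p under 0.05; limma-voom also passed 0 and DESeq2 364. With wells of the same injection and number as a block, 472 genes passed (3.10%), 228 with a higher and 244 with a lower log2 difference with SPARC, among them 25 of the 152 genes named here. Arg1 differed by +1.03 ± 0.44 with SPARC against +4.56 ± 0.50 without, a change of −3.53 ± 0.63, adjusted p = 0.147 without the block and −3.59 ± 0.46, adjusted p = 0.0225 with it. Fcgr1 went from −4.06 ± 0.48 to −0.90 ± 0.42 (+3.16 ± 0.61, adjusted p = 0.159, and with the block +3.07 ± 0.17, adjusted p = 0.00114). Axl went from −2.79 ± 0.42 to +0.28 ± 0.39 (+3.07 ± 0.57, adjusted p = 0.147, and with the block +2.91 ± 0.34, adjusted p = 0.0211). In the cholesterol synthesis list 20 of 23 members were lower in IL4c with SPARC, against 10 without; that change was not tested as a list.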

How the data were processed

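The authors deposited a table of expected counts, the estimated counts per gene that RSEM gives, of which 7.97% are not whole, and a table of FPKM values, which the authors scaled for gene length and depth. The submitters' processing notes name CASAVA, STAR, RSEM and bcl2fastq 1.8.4. The build, gene annotation and strand setting were not given in the sources used here. Identifiers were compared with GENCODE: 98.9% of them match release M21 (GRCm38) without version, and positions are from it. Counts of overlapping, antisense or near-identical genes may be shared between them.

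Counts were rounded and fitted with edgeR 4.0.16 in R 4.3.3 (robust quasi-likelihood, TMM scaling) after filterByExpr with a minimum count of 10. The fit held all 12 libraries in 4 groups, left 8 residual degrees of freedom and gave a biological coefficient of variation of 0.308. Values are log2 differences, IL4c minus TG, ± SE, with Benjamini-Hochberg adjustment over 15232 genes. CPM use TMM-scaled library sizes. Alternatives were limma 3.58.1 (also on log2 FPKM), DESeq2 1.42.0, other scalings and filters, a replicate block, and libraries left out. Replicate numbers did not pair libraries across injections. Within an injection each untreated library correlated best with the SPARC library of its own number (correlations of deviations in the report), but the labels do not state a pairing. A block by injection and number for the difference between wells, with 4 residual degrees of freedom, was added after seeing the data. The fit of all libraries treats same-numbered wells as separate.

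Members and lists were chosen with earlier results of these data known. Named were the 12 largest rises and 12 largest falls past an adjusted p of 0.05 with groups that did not overlap and an average of 10 CPM or more (unnamed gene models passed over), up to 4 members per list by p, and a set named whatever its values, such as Sparc, Mrc1, Il6 and Tlr4. Some genes that this rule picks are not reported here. Myc, F5, Smox, Ccr1, Cxcr4, Igtp, Timp1, Cebpb, Saa3, the Retnla sequence and the genes under other observations were chosen after their values were seen. Fitted differences of genes with a group near 0 depend on the prior count.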

Additional observations from a re-analysis of the deposited data

Results flagged for a closer look

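For 3 named genes every untreated IL4c library lay below every untreated TG library, while with SPARC every IL4c library lay above every TG library. Ifit1 differed by −1.15 ± 0.30 untreated and +1.07 ± 0.28 with SPARC, a difference between wells of +2.21 ± 0.41, adjusted p = 0.147 in edgeR. Nr1h3, the LXR alpha gene, differed by −1.41 ± 0.27 and +0.44 ± 0.27 (+1.85 ± 0.38, adjusted p = 0.161). Oas3 differed by −1.10 ± 0.24 and +0.62 ± 0.23 (+1.72 ± 0.33, adjusted p = 0.159). None of the 3 differences between wells passed the adjusted threshold without a block. With wells of the same injection and number as a block, Ifit1 (+2.12 ± 0.32, adjusted p = 0.0328) and Oas3 (+1.66 ± 0.24, adjusted p = 0.0289) passed and Nr1h3 did not (+1.75 ± 0.36, adjusted p = 0.0587). Both interferon-induced genes stood far higher with SPARC in both injections: Oas3 was at 10.9 to 38.3 CPM in untreated wells and 309 to 654 CPM with SPARC, and Ifit1 at 2.92 to 9.43 CPM and 144 to 378 CPM.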

How the results depend on the processing

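The fit called 3197 genes, and RLE scaling, DESeq2, limma-voom and the strict filter stayed within 1.5 times of that. With the 6 untreated libraries fitted alone 1631 genes were called, 597 of them lower, with 7 large resident genes higher, 3 monocyte genes lower and 6 cholesterol genes lower. Without a count filter 922 genes were lower, and 3 monocyte genes. Total-count scaling gave 2790 lower. Genes called higher on FPKM were 933 with a pseudocount of 1, 920 with 0.1 and 922 with 1 and no filter. Leaving out 1 library each gave 1376 to 4562 calls, 853 to 2316 higher and 523 to 2246 lower, with 6 to 21 large resident genes higher, 11 to 19 alternative activation genes higher, 2 to 5 monocyte genes lower and 6 to 10 cholesterol genes lower. Each of these fits held fewer libraries, and another cause was not tested. The highest total came without TG replicate 1, and totals fell by over 1.5 times without TG 2 (1376), TG 3 (1699), IL4c 1 (1516) or IL4c 2 (1587). Without both TG libraries numbered 1 there were 6002 calls, 2953 higher and 3049 lower, with 21 large resident genes higher, and without both IL4c libraries numbered 3 there were 1095 lower calls and 6 cholesterol genes lower.

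The difference between wells had 0 calls without a block and 472 with wells of the same injection and number as a block, chosen after seeing the data. For IL4c against TG, with the replicate number as a block in the 6 untreated libraries 127 genes were called, 91 higher and 36 lower, with 5 alternative activation genes and 2 large resident genes higher, 0 monocyte genes and 0 cholesterol genes lower. The numbers do not pair these libraries across injections: deviations of same-numbered libraries correlated at 0.176, −0.178 and 0.250 across injections, and not every library correlated best with its own number.

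Of 126 named genes that passed, 84 passed with each library left out in turn. The other 42 lost the call at least once: Amd1, C1ra, C4b, Ccl5, Ccr1, Cd209a, Cebpb, Clec12a, Col1a1, Cxcl10, Cxcl9, Cxcr4, F5, Flt3, Gdf3, Gpi1, H2-Eb1, Ifi30, Ifit1, Igtp, Il1a, Irak1, Itgb5, Lrg1, Ly6c2, Ly96, Mcpt4, Pla2g4a, S100a6, Serpinb2, Slc11a1, Smad7, Smox, Sparc, Spn, Timp1, Tnf, Tnfaip3, Tnip1, Ucp1, Usp18 and Vsig4. Lost calls numbered 8, 36 and 26 without TG 1, 2 and 3, and 35, 38 and 14 without IL4c 1, 2 and 3. These fits kept the SPARC libraries, and 36 named genes lost the call when the untreated libraries were fitted alone. No called gene changed sign. Among genes not called, Cd74 ran from −1.57 to 0.059 over single libraries left out (0.059 without both TG libraries numbered 1), Cxcl13 from −2.84 to 0.764 (0.763), Irf4 from −1.04 to 0.763 (0.762, adjusted p = 0.0092) and Mrc1 from −0.742 to 0.733. Mrc1 was −0.712 without both IL4c libraries numbered 3, −0.073 on log2(FPKM + 1) with and without the filter, and −0.079 with a pseudocount of 0.1. Levels under 0.0707 to 0.0974 CPM, 3 counts in a library, are beyond the depth.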

Other observations

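Genes of the amino acid response, the programme driven by ATF4 when amino acids run short, were more often called higher than lower in IL4c. The list was drawn up after values had been seen, so its counts are a description. Of 24 tested members 10 were higher and none lower in edgeR, beside 10.2% and 10.8% of all genes, and 14 were not called. As lower, 1 had an unadjusted p under 0.05, total-count scaling called 1, and DESeq2 and limma-voom 0. Without TG replicate 1, 13 were higher and 1 lower. The median log2 difference was +1.50, and with SPARC 15 were higher and none lower. The summed level overlapped, at 671, 1301 and 1249 CPM in TG and 1554, 1226 and 1380 CPM in IL4c. Asns, the asparagine synthetase, read 1.77, 4.41 and 3.31 CPM in the TG libraries and 60.5, 34.8 and 56.4 CPM in the IL4c libraries, with no overlap (+4.00 ± 0.42, adjusted p = 0.000581 in edgeR's quasi-likelihood test). Chac1, which degrades glutathione, was low in TG and read 0.0943, 0.182 and 0.341 CPM in TG and 6.95, 3.81 and 5.06 CPM in IL4c (+4.67 ± 0.54, adjusted p = 0.000898). The transcription factor gene Atf5 read 18.3, 28.9 and 32.6 CPM in TG and 177, 148 and 158 CPM in IL4c (+2.60 ± 0.19, adjusted p = 0.000166), Mthfd2, of mitochondrial one-carbon metabolism, 11, 12.2 and 12.4 CPM in TG and 73.8, 44.3 and 59.5 CPM in IL4c (+2.32 ± 0.22, adjusted p = 0.000384), and the amino acid exchanger gene Slc7a5 4.67, 4.22 and 4.41 CPM in TG and 33.1, 19.1 and 25.1 CPM in IL4c (+2.54 ± 0.37, adjusted p = 0.00251). Of 20 cytosolic tRNA synthetase genes 8 were higher and 2 lower, beside the same shares of all genes, although with libraries scaled to total count 6 were higher and 3 lower. Yars led them, at 19.2, 18.4 and 18.4 CPM in TG and 46.1, 35.3 and 36.5 CPM in IL4c (+1.07 ± 0.17, adjusted p = 0.00341).

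Of 9 tested MS4A membrane protein genes other than the one that marks B cells, also listed after values had been seen, 6 were lower in IL4c and 1 was higher. Of all genes 10.8% were lower and 10.2% higher. Ms4a7 read 115, 156 and 157 CPM in TG and 17.7, 24.1 and 23.1 CPM in IL4c (−2.72 ± 0.31, adjusted p = 0.000898), and Ms4a8a went the other way, at 67.2, 28.5 and 38 CPM in TG and 312, 245 and 220 CPM in IL4c (+2.54 ± 0.33, adjusted p = 0.00158). The members are close relatives, so reads may be shared between them. With SPARC 2 members were lower and 1 higher. The metal-binding metallothionein genes Mt2, at 10.4, 8.45 and 11.5 CPM in TG and 88, 74.1 and 60 CPM in IL4c (+2.87 ± 0.26, adjusted p = 0.000322), and Mt1, at 66.3, 60 and 75.3 CPM in TG and 160.5, 170.1 and 126 CPM in IL4c (+1.18 ± 0.15, adjusted p = 0.00135), were both higher, and Mt3 had few counts.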
